A study of Homo sapiens with 16 samples.

Results

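Interferon-stimulated genes are the genes that a cell switches on when it meets an interferon, and 47 well-known members of this set were followed through 4 human immune cancer cell lines. All 47 were found by their symbol among the 27311 genes that each expression file lists. Levels are in TPM, transcripts per 1000000, a unit that corrects for gene length and library size, so that genes can be compared with each other. The study took 16 bulk RNA sequencing libraries, with 2 untreated and 2 stimulated libraries per line. THP-1, a monocytic leukaemia line, carried dCas9-KRAB, a catalytically dead Cas9 joined to a transcriptional repressor domain, in its untreated and its stimulated cells, and the labels name no guide RNA. THP-1 was stimulated with 1 µg/ml bacterial lipopolysaccharide (LPS). U937, a monocytic line labelled wild type, received 200 ng/ml LPS. Jurkat, a T cell leukaemia line labelled wild type, received 5 µg/ml anti-CD3 with 100 ng/ml PMA, a phorbol ester. BJAB, a B cell lymphoma line labelled wild type, received 10 µg/ml anti-IgM with 4 µg/ml anti-CD40. Every stimulation lasted 4 hours and the controls were untreated. Each line is an immortal tumour line and received its own stimulus or dose, so line and stimulus cannot be told apart in a comparison of responses between lines. The labels do not say whether the 2 libraries of a group came from separate cultures, and the p-values then measure the spread between libraries, which may be technical.

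Type I interferons bind the receptor made of IFNAR1 and IFNAR2, whose kinases JAK1 and TYK2 phosphorylate STAT proteins. STAT2 and IRF9 are parts of the complex ISGF3, which binds the interferon-stimulated response element (ISRE) in promoters of its target genes. Interferon gamma acts through another promoter element, GAS. The products of the induced genes block viruses at many steps: they sense viral RNA, stop its translation, degrade it, trap particles at membranes and keep the signal in check. In monocytes LPS is known to reach this pathway through TLR4, the adaptor TICAM1 and newly made interferon beta, while unstimulated cells keep many of these genes at a low tonic level.

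Promoter sequence shows what many of these genes share. RefSeq promoters of build GRCh38.p14, taken from 250 bases before to 50 bases after each annotated start, were on hand for 38 of the 47 genes, with DDX58 matched under its newer symbol RIGI. The ISRE core GAAANNGAAA, searched on both strands with overlapping matches allowed, occurred in 29 of the 38 (76.3%) and in 4.38% of all 27305 gene symbols with a promoter. Of these 29 genes, 16 held 2 or more matches. The GAS core TTCNNNGAA, searched in the same way, occurred in 11 of the 38 (28.9%) and in 9.38% of all symbols. A match is a string of letters and not a measured binding site. EIF2AK2, BST2, PARP14 and SAMD9 fell in stimulated BJAB, and GBP1, RSAD2 and EPSTI1 fell in stimulated Jurkat. IFIT1 and ISG15 are well-known members that passed the test in neither. The 9 stretches of 60 bases here are from these genes and were chosen because they hold an ISRE core. Each is written 5′ to 3′ along its gene's strand, and capitals mark the ISRE core as it reads on that strand or on the opposite one, where it reads as its reverse complement.
IFIT1, chr10:89392488-89392547, plus strand: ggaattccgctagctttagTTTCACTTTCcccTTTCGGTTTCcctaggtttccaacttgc
ISG15, chr1:1013362-1013421, plus strand: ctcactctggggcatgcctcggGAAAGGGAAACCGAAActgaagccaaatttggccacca
EIF2AK2, chr2:37156971-37157030, minus strand: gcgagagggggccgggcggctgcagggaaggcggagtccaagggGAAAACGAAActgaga
BST2, chr19:17405723-17405782, minus strand: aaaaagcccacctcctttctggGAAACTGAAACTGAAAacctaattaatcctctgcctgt
PARP14, chr3:122680785-122680844, plus strand: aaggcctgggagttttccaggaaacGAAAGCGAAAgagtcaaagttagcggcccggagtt
SAMD9, chr7:93118081-93118140, minus strand: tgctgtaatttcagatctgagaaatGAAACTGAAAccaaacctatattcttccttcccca
GBP1, chr1:89065301-89065360, minus strand: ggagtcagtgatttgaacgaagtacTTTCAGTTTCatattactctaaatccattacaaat
RSAD2, chr2:6877607-6877666, plus strand: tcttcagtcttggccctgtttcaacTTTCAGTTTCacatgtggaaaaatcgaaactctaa
EPSTI1, chr13:42992257-42992316, minus strand: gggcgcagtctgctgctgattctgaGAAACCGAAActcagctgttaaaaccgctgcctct
In ISG15 and BST2 the capitals run through 2 overlapping matches, and in IFIT1 they mark 2 separate ones. IFIT2, OAS2, OASL, DHX58, MX2, GBP2, IFITM2, USP18 and TRIM22 had no promoter entry. Among the 11 members that fell in BJAB, 6 had an entry and 4 of these held an ISRE core. Among the 5 that fell in Jurkat, 4 had an entry and 3 held one. The entries without an ISRE core were those of OAS1 and SP110 for BJAB and XAF1 for Jurkat.

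Depth, recovered from the smallest step between values, ran from 4125221 to 8431295 reads per library, and the 47 genes together held 5246 to 11536 of these reads. In the second stimulated THP-1 library every recovered count of a member was even. Its recovered 6634668 reads, with 8052 in the members, may thus be overstated by a common factor of 2. The true values of that library may lie below these ranges. Each line expressed the markers of its labelled type, with at least 1 TPM in both untreated libraries for 10 of 10 monocytic markers in THP-1, 7 of 10 in U937, where CD14 was listed at 0, 8 of 8 T cell markers in Jurkat and 7 of 8 B cell markers in BJAB. In U937 and in BJAB the first of the stimulated libraries stood apart from its partner. The log2 difference between partners had a standard deviation over genes of 0.89 in stimulated U937 and 0.96 in stimulated BJAB, against 0.35 to 0.46 in the other 6 groups. Results over the members that involve stimulated U937 or BJAB are therefore also given without these 2 libraries. In the first stimulated U937 library the change of a gene moved with its length: the median log2 difference of the members from their controls ran from 0.64 in the shortest of 5 equal length classes to -1.14 in the longest, where all genes ran from 0.11 to -0.76.

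Untreated cells of the 4 lines kept different members of the set switched on. Jurkat had the highest untreated mean for 21 of the 47 genes, BJAB for 14, THP-1 for 7 and U937 for 5. This ranking was not made over all genes. Tests here and in what follows used limma on log2(TPM + 1) over all 14398 genes that reached 1 TPM in 2 libraries, with Benjamini-Hochberg adjustment over all of them and a threshold of 0.05. IFI44L, whose highest value was 0.621 TPM, was not tested, which left 46 members. Of these, 21 were higher in 1 line than in each of the other 3, where 24.7% of all tested genes were. They were 12 members in Jurkat (8.01% of all genes), 4 in BJAB (5.98%), 3 in THP-1 (6.85%) and 2 in U937 (3.85%). Members lower in 1 line than in each of the others numbered 7 in BJAB (5.97% of all genes), 3 in U937 (2.93%), 1 in THP-1 (2.19%) and 0 in Jurkat (2.34%).

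Between pairs of untreated lines, 32 members differed between U937 and Jurkat, 25 of them higher in Jurkat and 7 in U937, where 32.6% of all tested genes differed (19.6% and 12.9%). THP-1 and Jurkat differed in 27 members, 19 higher in Jurkat and 8 in THP-1, against 35.1% of all genes (19.6% and 15.5%). Jurkat and BJAB also differed in 27 members, 20 higher in Jurkat and 7 in BJAB, against 31.8% of all genes (20.4% and 11.3%). THP-1 and BJAB differed in 29 members, 17 higher in THP-1 and 12 in BJAB, against 35.5% of all genes (20.6% and 14.8%). U937 and BJAB differed in 22 members, 12 higher in BJAB and 10 in U937, against 33.9% (15.9% and 17.9%). THP-1 and U937 differed in 16 members, 10 higher in THP-1 and 6 in U937, against 25.9% (14.8% and 11.1%). As shares of the 46 tested members these counts run from 34.8% for THP-1 and U937 to 69.6% for U937 and Jurkat. Over all tested genes the median log2 difference was -0.15 for THP-1 minus Jurkat, -0.14 for U937 minus Jurkat and 0.15 for Jurkat minus BJAB. Over the members these medians were -0.72, -1.2 and 0.5.

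**Figure D1:**
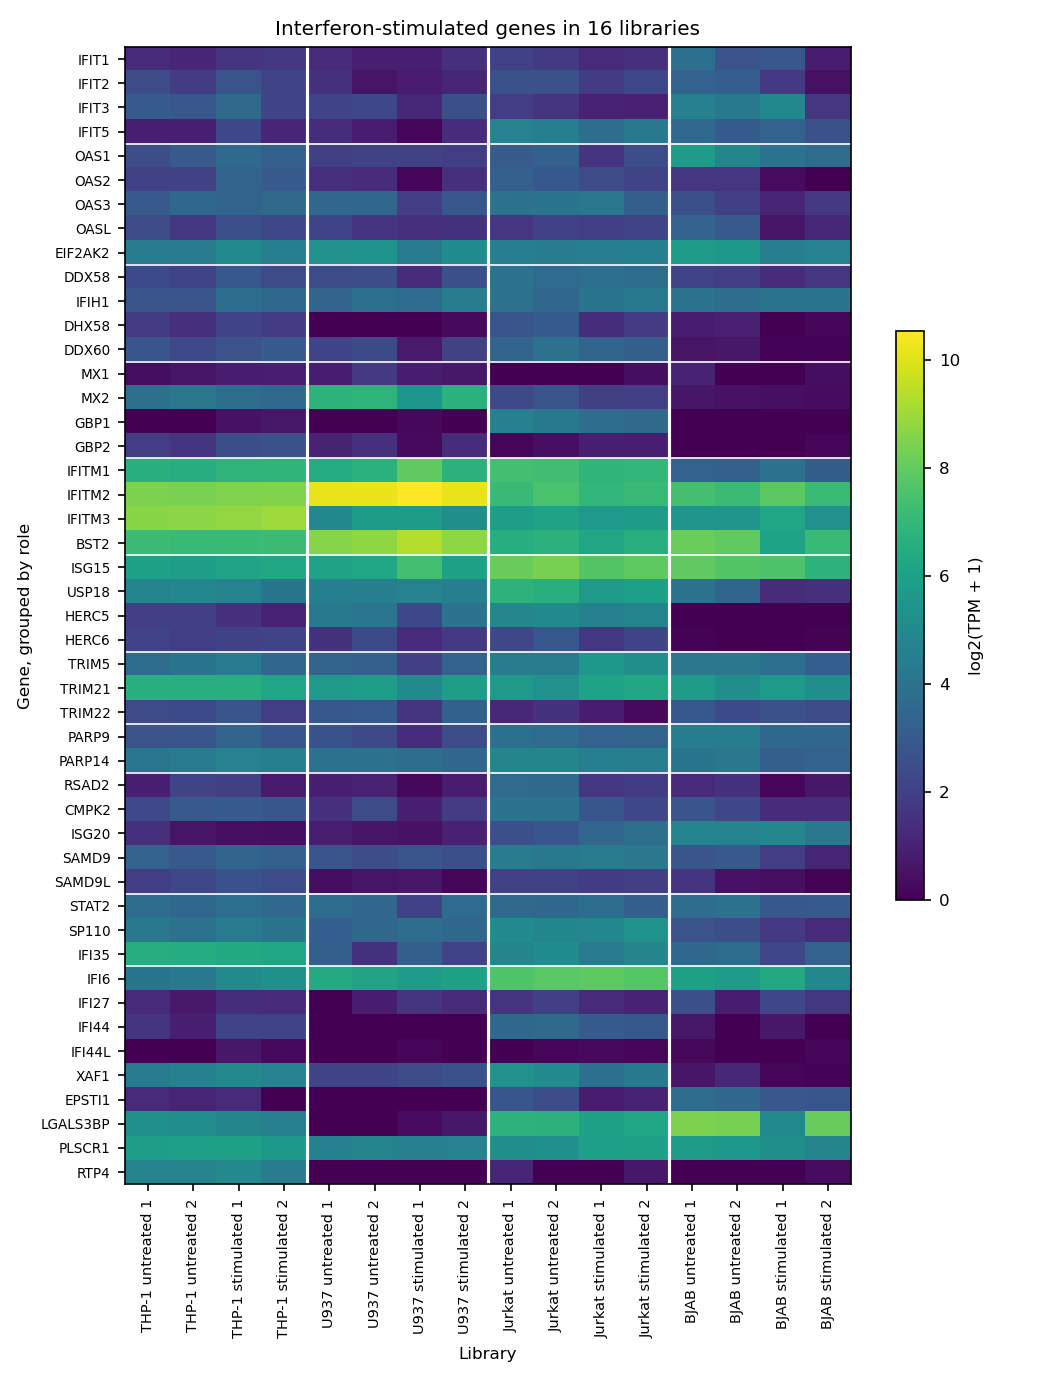
Level of each of the 47 genes in each of the 16 libraries, as log2(TPM + 1) by colour, with genes in rows grouped by role and libraries in columns grouped by line. IFITM2, BST2 and ISG15 are bright in every line, while GBP1 is bright in the 4 Jurkat libraries and RTP4 in the 4 THP-1 libraries.

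The membrane restriction factors were among the most abundant members. IFITM2, which with IFITM1 and IFITM3 hinders the fusion of virus and cell membranes, was at 1166 and 1188 TPM in untreated U937, 355 and 344 in THP-1, 141 and 181 in Jurkat and 171 and 144 in BJAB. IFITM3 was instead highest in THP-1, at 409 and 412 TPM, against 57.9 and 66.5 in Jurkat, 45.03 and 44.2 in BJAB and 28.8 and 51.7 in U937. Each of the other 3 lines was lower than THP-1 (adjusted p = 5.81e-05 against Jurkat, the nearest), and no pair of these 3 passed. IFITM1 was at 165 and 158 TPM in Jurkat, 101 and 94.6 in THP-1, 89.4 and 104 in U937 and 9.06 and 8.33 in BJAB, which was lower than each of the other lines. The 3 IFITM genes are close copies of each other and the reads are described as uniquely aligned, so their levels are uncertain. BST2, also called tetherin, which holds budding virus at the cell surface, was at 397 and 425 TPM in U937, 277 and 251 in BJAB, 149 and 136 in THP-1 and 92.6 and 107 in Jurkat. Its neighbouring lines in that order did not pass the test against each other, with adjusted p from 0.0502 to 0.262.

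ISG15 is a ubiquitin-like protein that is attached to other proteins, USP18 removes it and also damps the interferon receptor, and HERC5 is the ligase that attaches it. ISG15 was at 272 and 334 TPM in Jurkat, 252 and 207 in BJAB, 65.8 and 72.6 in U937 and 64.3 and 58.1 in THP-1. Both lymphoid lines were above both monocytic lines, and Jurkat and BJAB did not pass against each other (adjusted p = 0.513). USP18 was at 112 and 97.9 TPM in Jurkat, 26.1 and 28.2 in THP-1, 22.6 and 21.6 in U937 and 14.8 and 9.73 in BJAB, so that Jurkat was above and BJAB below each of the other lines. HERC5 reached 28.7 and 32.3 TPM in Jurkat, 18.2 and 16.6 in U937 and 2.896 and 2.93 in THP-1, and all 4 BJAB libraries listed it at 0, where 3 reads would have been worth 0.218 to 0.292 TPM. Floors of this kind cover counting error only. HERC6, a relative of HERC5, was also highest in Jurkat and lowest in BJAB, with means of 5.07 and 0.0440 TPM.

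The OAS enzymes make a messenger from double-stranded RNA that activates RNase L, OASL is a relative that lacks this activity and aids RIG-I, and EIF2AK2 encodes the kinase PKR, which halts translation. EIF2AK2 was the most abundant of them, at 55.2 and 47.7 TPM in BJAB, 39.6 and 41.1 in U937, then 21.9 and 21.1 in Jurkat and 20.4 and 19.2 in THP-1. OAS1 was at 53.8 and 27.7 TPM in BJAB, above 7.13 and 8.47 in Jurkat, 4.63 and 6.61 in THP-1 and 3.04 and 3.18 in U937 (adjusted p = 0.000584 against Jurkat, the nearest). OASL was also highest in BJAB, with 8.85 and 6.78 TPM, while 4.31 and 2.23 in THP-1, 3.59 and 2.02 in U937 as well as 2.14 and 3.16 in Jurkat overlapped. OAS2 and OAS3 went the other way and were highest in Jurkat. OAS2 was at 8.302 and 6.53 TPM in Jurkat, 3.25 and 3.13 in THP-1, 2.22 and 2.14 in BJAB and 1.65 and 1.56 in U937. OAS3 was at 14.6 and 15.4 TPM in Jurkat, 10.2 and 10.1 in U937, 6.68 and 10.3 in THP-1 and 4.94 and 2.98 in BJAB.

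Of the helicases that sense viral RNA, IFIH1, which encodes MDA5, had the highest mean over the untreated libraries and was the most even. It was at 15 and 12.5 TPM in BJAB, 14.8 and 10.4 in Jurkat, 9.2 and 13.3 in U937 and 5.74 and 5.87 in THP-1. DHX58, which encodes LGP2, a sensor that modulates the other helicases, was ordered without overlap at a much lower level. It was at 5.85 and 7.298 TPM in Jurkat, 2.63 and 1.77 in THP-1 and 0.784 and 0.961 in BJAB and was listed at 0 in both U937 libraries, and each step of that order passed the test. The BJAB level rested on 6 and 8 reads in the first and second library. DDX58, the gene of RIG-I, and DDX60 were also highest in Jurkat, with means of 13.4 and 12.0 TPM, each above the 3 other lines. In Jurkat the DDX58 mean was slightly above that of IFIH1, 12.6 TPM. DDX60 had its lowest mean, 0.536 TPM, in BJAB.

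The GTPases differed sharply between lines. GBP1, which assembles on pathogen membranes, was at 23.1 and 18.1 TPM in Jurkat, from 253 and 159 reads, and was listed at 0 in both untreated libraries of each other line. In the libraries that list GBP1 at 0, 3 reads would have been worth 0.252 to 0.525 TPM. MX2, which blocks the nuclear entry of HIV, was at 112 and 115 TPM in U937, then 13.97 and 17.2 in THP-1, 4.04 and 5.75 in Jurkat and 0.577 and 0.424 in BJAB, and every step of that order passed (adjusted p from 6.3e-05 to 0.00387). MX1, a block to influenza virus, never exceeded 2.38 TPM in any library and was listed at 0 in untreated Jurkat. GBP2 had means of 2.48 TPM in THP-1, 1.35 TPM in U937, 0.235 TPM in Jurkat and 0 in BJAB.

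Among IFIT proteins, which bind foreign RNA ends and translation factors, IFIT1, IFIT2 and IFIT3 had their highest means in BJAB (9.52, 8.41 and 20.6 TPM) and IFIT5 in Jurkat. IFIT5 was at 24.3 and 22.5 TPM in Jurkat, 11.02 and 7.48 in BJAB, 1.59 and 0.745 in U937 and 0.891 and 0.895 in THP-1, so that both lymphoid lines lay above both monocytic lines. The IFIT genes overlap LIPA in the annotation, and Smart-seq2 does not mark strand, so that their reads may be shared. The same limit holds for RSAD2 with CMPK2, PARP9 with DTX3L, EIF2AK2 with GPATCH11, SP110 with SP140 and TRIM5 with TRIM6 and TRIM34.

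TRIM21, a cytosolic antibody receptor, was at 103 and 99.7 TPM in THP-1, 49.9 and 56.4 in U937, then 54.2 and 36.98 in BJAB and 49.9 and 39.4 in Jurkat. TRIM5, a retroviral restriction factor, had means from 8.83 TPM in U937 to 20.8 in Jurkat and passed between no pair of lines. PARP14, an ADP-ribosyltransferase, was at 27.5 and 26.6 TPM in Jurkat, 16.6 and 20 in THP-1, 16.3 and 17.6 in BJAB and 14.8 and 14.5 in U937. PARP9, of the same family, was highest in BJAB, with a mean of 20.5 TPM.

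RSAD2, or viperin, which makes a chain-terminating nucleotide, and its neighbour CMPK2 were both highest in Jurkat. RSAD2 was at 11.7 and 11.1 TPM there and between 0.853 and 3.52 in the untreated libraries of the other lines. CMPK2 was at 15.02 and 14.1 TPM there, against 4.04 and 6.65 in THP-1, 5.601 and 3.79 in BJAB and 1.802 and 4.49 in U937. SAMD9, a restriction factor for poxviruses, was at 20.9 and 18.2 TPM in Jurkat, 8.96 and 6.66 in THP-1, 5.93 and 6.78 in BJAB and 5.92 and 4.69 in U937. Each of these 3 genes was higher in Jurkat than in each other line. The exonuclease ISG20 was instead highest in BJAB, at 25.7 and 24.8 TPM, followed by 4.87 and 6.08 in Jurkat, 1.697 and 0.531 in THP-1 and 0.825 and 0.541 in U937.

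STAT2, the member that is part of ISGF3 itself, was level across the lines, with means from 10.8 to 13.3 TPM, and passed between no pair of them. The nuclear body protein SP110 was at 32.4 and 27.2 TPM in Jurkat, 17.7 and 14.1 in THP-1, 7.74 and 10.6 in U937 and 5.51 and 4.76 in BJAB. IFI35 was at 94.5 and 89.9 TPM in THP-1, 26.9 and 33.9 in Jurkat, 10.9 and 12.3 in BJAB and 8.12 and 1.92 in U937, so that THP-1 was above each other line.

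Of the remaining genes, LGALS3BP, a secreted glycoprotein that binds galectins, had the widest range, with 352 and 327 TPM in BJAB, 111 and 108 in Jurkat, 38.1 and 34.3 in THP-1 and 0 in both untreated U937 libraries, where 3 reads would have been worth 0.399 to 0.709 TPM. RTP4, a chaperone of membrane receptors, was at 24.9 and 25.2 TPM in THP-1, 1.101 and 0 in Jurkat and 0 in untreated BJAB, and no U937 library listed it above 0. IFI44 was at 10.3 and 11.7 TPM in Jurkat, 2.08 and 0.895 in THP-1 and 0.593 and 0 in BJAB, and every U937 library listed it at 0. EPSTI1 was likewise at 0 in every U937 library, with 12.3 and 9.98 TPM in BJAB, 6.01 and 4.71 in Jurkat and 1.39 and 1.11 in THP-1. The mitochondrial protein IFI6 was at 199 and 226 TPM in Jurkat, 85.1 and 70.9 in U937, 61.6 and 55.5 in BJAB and 16.03 and 18.3 in THP-1. XAF1, which antagonises the apoptosis inhibitor XIAP, was at 38.9 and 33.1 TPM in Jurkat, 19.1 and 23.8 in THP-1, 3.54 and 3.56 in U937 and 0.566 and 1.301 in BJAB. PLSCR1, a phospholipid scramblase, ranged less widely, at 59.5 and 60.2 TPM in THP-1, 52.3 and 47.5 in BJAB, 35.8 and 38.02 in Jurkat and 23.9 and 25.7 in U937.

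In THP-1 after 4 hours of LPS, no member passed the test, where 0.167% of all tested genes did (0.118% higher and 0.0486% lower). The median change of the 46 tested members was 0.27 on the log2(TPM + 1) scale and that of all genes -0.06, and 32 members had a positive change. Both stimulated libraries lay above both controls for 21 members (45.7%), which 12.2% of all genes did, and below both for 7 (15.2%), which 22.5% of all genes did. At an unadjusted p under 0.05 there were 6 members (13.0%), all with a positive change, where 3.63% of all genes were under it (2.1% positive and 1.53% negative). They were OAS2, IFI6, IFIH1, IFI44, GBP2 and GBP1. As the libraries are bulk, a change in every cell and a change in some of the cells cannot be told apart.

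OAS2 had the largest positive difference, from 3.25 and 3.13 TPM in the controls to 9.12 and 7.04 after LPS, a log2 difference of 1.10 (SE 0.33, adjusted p = 0.551). IFI6 was at 16.03 and 18.3 TPM and then 32.2 and 37.9, a log2 difference of 0.99 (SE 0.38, adjusted p = 1.0). IFIH1 was at 5.74 and 5.87 TPM and then 13.1 and 10.9, with 0.93 (SE 0.30, adjusted p = 0.657). For these 3 genes each stimulated library was above each control, although none passed. OAS1 went from 4.63 and 6.61 to 11.2 and 8.34 TPM, again without overlap, with a log2 difference of 0.70 (SE 0.36, adjusted p = 1.0). GBP1, at 0 in both controls, was at 0.429 and 0.593 TPM after LPS, from 5 and 6 recovered reads. The 6 may be overstated, as every recovered member count of that library was even. The largest negative differences among members of at least 5 TPM were those of LGALS3BP, from 38.1 and 34.3 to 26.9 and 23.2 TPM (-0.52), USP18, from 26.1 and 28.2 to 24.2 and 16 (-0.44), MX2, from 13.97 and 17.2 to 12.6 and 11.2 (-0.36), and TRIM21, from 103 and 99.7 to 98.2 and 74.4 (-0.24). All 4 had an adjusted p of 1.0, although both stimulated libraries lay below both controls. By role, median log2 differences ran from -0.18 for the ISG15 system and -0.02 for the TRIM proteins to 0.37 for the RNA sensors, 0.38 for the IFIT proteins, 0.40 for the OAS and PKR genes and 0.48 for the GTPases, whose members ran from -0.36 to 0.78. Without the 2 libraries that stood apart, which share the estimate of spread, IFI6 alone passed (adjusted p = 0.023), where 0.257% of all genes did.

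In U937 after LPS no member passed either, where 0.0278% of all genes did (0.0208% higher and 0.00695% lower). The median change of the members was -0.08 and that of all genes -0.25, and after scaling each library by the median ratio over genes these medians were 0.10 and 0. Both stimulated libraries lay above both controls for 5 members (10.9%, against 11.2% of all genes) and below both for 9 (19.6%, against 30.7%). At an unadjusted p under 0.05 there were 4 members, OAS3, HERC5, DDX60 and EIF2AK2, all with a negative change and each with an adjusted p of 0.329. This share of the members (8.7%) was below that of all genes, 15.1% (2.64% positive and 12.5% negative). OAS3 was at 10.2 and 10.1 TPM in the controls and 2.77 and 6.32 in the stimulated libraries (-1.09, SE 0.42). HERC5 was at 18.2 and 16.6 TPM and then 3.92 and 15.2 (-1.04, SE 0.42). MX2 was at 112 and 115 TPM and then 45.8 and 104 (-0.71), and STAT2 at 12.6 and 10.2 and then 3.15 and 11.8 (-0.76). In STAT2 the second stimulated library lay between the controls, and in HERC5 and MX2 it lay just below them, while the first was far lower in all 3.

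Among members with a mean of at least 5 TPM in the higher group, the largest positive differences in U937 were those of IFITM1 and ISG15, in which the first stimulated library was high and the second was close to the controls. IFITM1 was at 89.4 and 104 TPM in the controls and 247 and 108 after LPS (0.76, adjusted p = 0.334), and ISG15 at 65.8 and 72.6 and then 163 and 63.9 (0.55, adjusted p = 0.426). IFIH1 was at 9.2 and 13.3 TPM and then 11.9 and 20.4 (0.45), and SP110 at 7.74 and 10.6 and then 12.8 and 10.7 (0.34). The groups overlapped for IFIH1 and did not for SP110, and neither passed. IFI27, below that level, had a larger difference of 1.02 (SE 0.48, adjusted p = 0.334). Without the 2 libraries that stood apart, no member passed and the median change was 0 for the members and for all genes. Without the second stimulated U937 library, which leaves the library that stood apart, 14 members passed, 2 higher and 12 lower, where 34.7% of all genes passed.

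Whether THP-1 and U937 differed in their response to LPS was tested directly, and the difference passed for no member, where 0.0486% of all genes passed (0.0347% larger in THP-1 and 0.0139% in U937). At an unadjusted p under 0.05 there were 7 members (15.2%), all with the larger value in THP-1, where 6.19% of all genes were under it (4.4% larger in THP-1 and 1.78% in U937). Of the 7, OAS2 had the largest difference, 1.69 (SE 0.47, adjusted p = 0.565). The median difference was 0.38 over the members and 0.24 over all genes. Without the 2 libraries that stood apart these medians were 0.11 and -0.03 and no member passed, where 0.0278% of all genes did. Without the second stimulated U937 library, which leaves the one that stood apart, 8 members passed, all with the larger value in THP-1, where 17.8% of all genes passed. The LPS dose and the genotype differ between these lines.

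**Figure D2:**
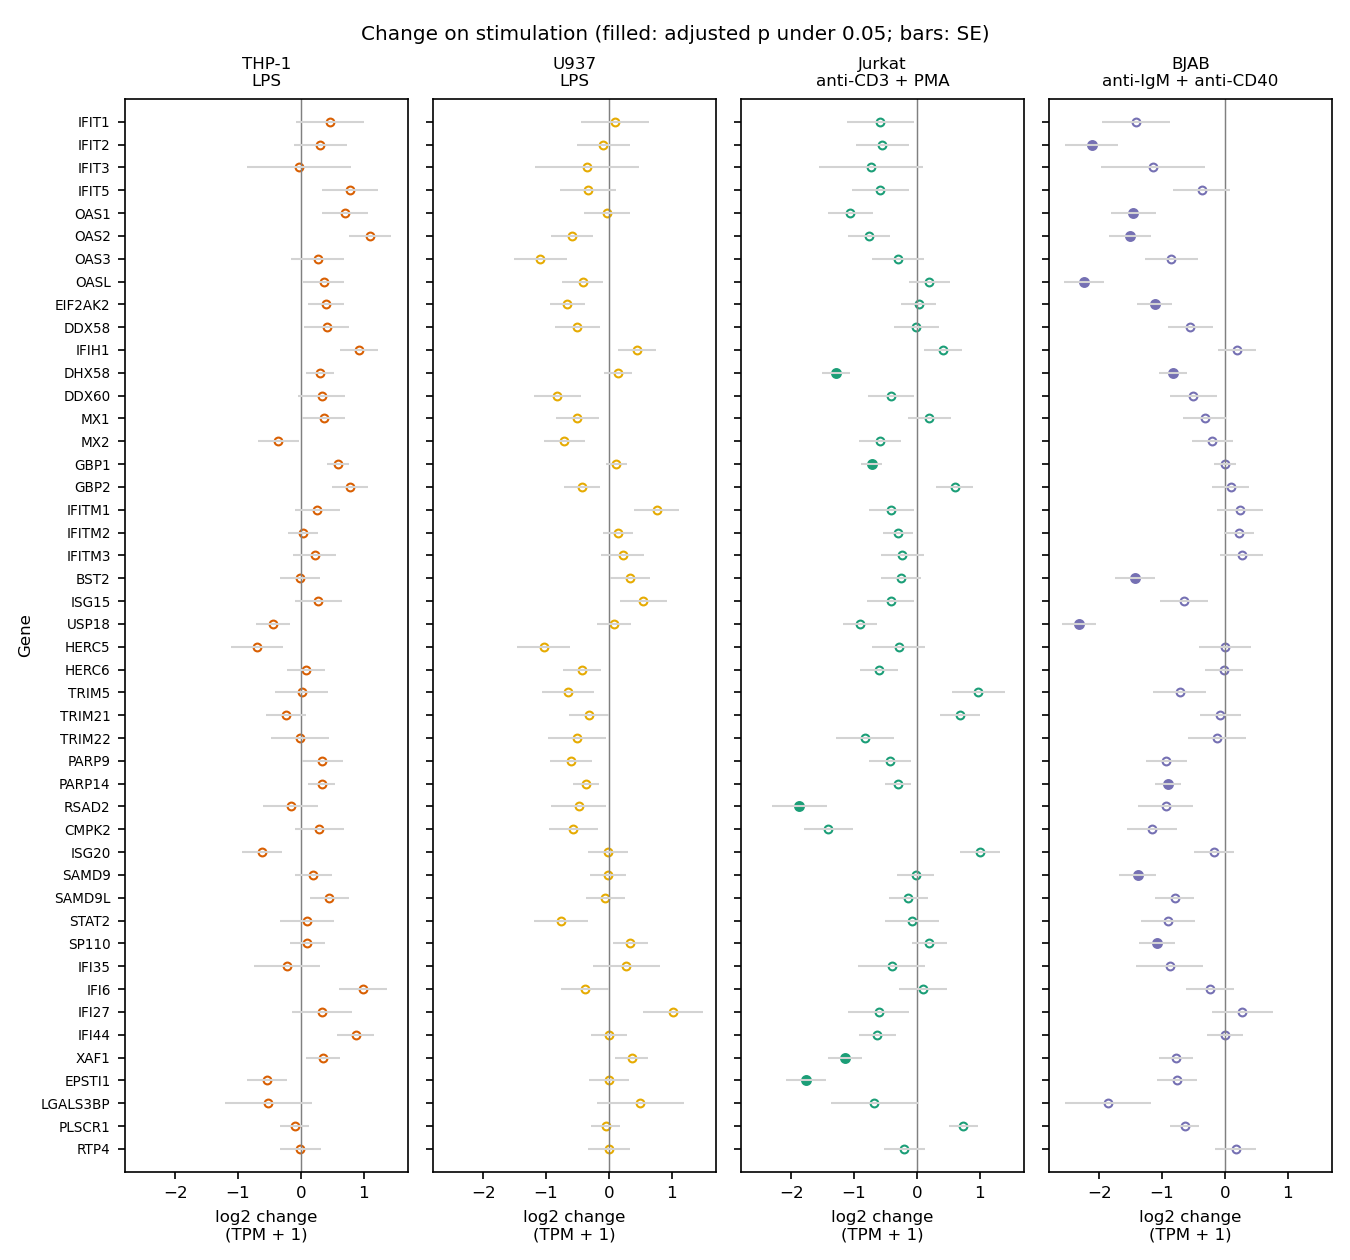
Change on stimulation of each of the 46 tested genes in each line, as the difference in log2(TPM + 1) between stimulated and untreated libraries with its standard error. Filled points passed an adjusted p under 0.05, which were 5 genes in Jurkat and 11 in BJAB, all to the left of 0.

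In Jurkat after 4 hours of anti-CD3 and PMA, 5 members fell and none rose: the sensor DHX58, EPSTI1, the apoptosis regulator XAF1, the GTPase GBP1 and RSAD2. Of all tested genes, 4.87% passed in either direction, 1.85% lower and 3.02% higher, against 10.9% of the members. The median change of the members was -0.40 and that of all genes -0.03. Both stimulated libraries lay below both controls for 28 members (60.9%), which 28.7% of all genes did, and above both for 6 (13.0%), which 21.0% of all genes did.

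RSAD2 was at 11.7 and 11.1 TPM in the controls and 2.22 and 2.56 after stimulation, and fell by 1.87 on the log2 scale (SE 0.44, adjusted p = 0.0324). EPSTI1 was at 6.01 and 4.71 TPM and then 0.739 and 1.02, and fell by 1.76 (SE 0.32, adjusted p = 0.00711). DHX58 was at 5.85 and 7.298 TPM and then 1.601 and 2.63, and fell by 1.29 (SE 0.22, adjusted p = 0.00448). In these 3 genes, both stimulated libraries were under 3 TPM and all controls above 4. XAF1 was at 38.9 and 33.1 TPM and then 13.2 and 18.3, and fell by 1.15 (SE 0.27, adjusted p = 0.0283). GBP1 was at 23.1 and 18.1 TPM and then 12.5 and 11.6, and fell by 0.72 (SE 0.17, adjusted p = 0.03). Jurkat was the line with the highest untreated level of GBP1, RSAD2, XAF1 and DHX58, and BJAB was that line for EPSTI1.

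CMPK2, which shares its locus with RSAD2, was at 15.02 and 14.1 TPM and then 5.99 and 3.897, a log2 difference of -1.41 (SE 0.39, adjusted p = 0.0703) that did not pass. USP18 was at 112 and 97.9 TPM and then 51.6 and 60.5, with -0.90 (SE 0.27, adjusted p = 0.096). The largest positive differences also missed the threshold. ISG20 was at 4.87 and 6.08 TPM and then 10.2 and 13.8 (1.00 (SE 0.32, adjusted p = 0.131)), and TRIM5 at 20.2 and 21.4 and then 48.4 and 36.4 (0.98 (SE 0.42, adjusted p = 0.331)). PLSCR1 was at 35.8 and 38.02 TPM and then 60.95 and 63.7 (0.74 (SE 0.23, adjusted p = 0.127)), and TRIM21 at 49.9 and 39.4 and then 67.3 and 76.7 (0.68 (SE 0.32, adjusted p = 0.397)). In each of these 4 genes both stimulated libraries were above both controls. By role, median log2 differences ran from -0.62 for the genes of no named role and -0.58 for the IFIT proteins to -0.08 for the transcription and nuclear genes and 0.68 for the TRIM proteins, whose 3 members ran from -0.82 to 0.98.

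The Jurkat count depended on the fit. It was 0 with a pseudocount of 0.1 (3.08% of all genes), 9 with a pseudocount of 5 (6.51%), and 1 with the Jurkat libraries fitted alone (2.56%) or with weighted recovered reads (3.85%). In the 3 of these fits that gave 0 or 1, the members' share was below that of all genes. The same held without either first Jurkat library, untreated or stimulated. With the 2 libraries that stood apart left out, 13 members passed, 10 lower and 3 higher (13.5% of all genes). Leaving out a Jurkat library gave 1 member (DHX58) without either first library, where 2.99% and 3.33% of all genes passed, and 3 without either second one, where 3.11% and 3.2% did. Leaving out either U937 control gave 2 members (4.35%), against 4.29% and 4.31% of all genes.

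In BJAB after 4 hours of anti-IgM and anti-CD40, 11 members fell and none rose. Of all tested genes 6.4% passed in either direction, 4.76% lower and 1.63% higher, against 23.9% of the members. They were USP18, the double-stranded RNA branch OASL, OAS1, OAS2 and EIF2AK2, the RNA-binding IFIT2, the sensor DHX58, BST2, SAMD9, PARP14 and SP110. The median change of the members was -0.74 and that of all genes -0.14, and after scaling each library by the median ratio over genes these were -0.45 and 0. Both stimulated libraries lay below both controls for 27 members (58.7%), which 32.9% of all genes did, and above both for 1 (2.17%), which 14.2% of all genes did.

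USP18 was at 14.8 and 9.73 TPM in the controls and 1.51 and 1.72 after stimulation, and fell by 2.32 on the log2 scale (SE 0.27, adjusted p = 0.000397). OASL was at 8.85 and 6.78 TPM and then 0.491 and 1.29, and fell by 2.24 (SE 0.32, adjusted p = 0.0018). IFIT2 was at 8.999 and 7.82 TPM and then 2.35 and 0.386, and fell by 2.12 (SE 0.42, adjusted p = 0.0129). In all 3 the 2 groups were well apart, and the 2 stimulated libraries of IFIT2 differed most from each other.

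Of the OAS and PKR genes, 4 of 5 fell. OAS2 was at 2.22 and 2.14 TPM and then 0.249 and 0, from 40 and 42 reads and then 6 and 0, and fell by 1.51 (adjusted p = 0.0219). In the library at 0, 3 reads would have been worth 0.131 TPM. OAS1, which had its highest untreated level in BJAB, was at 53.8 and 27.7 TPM and then 15 and 12.1, and fell by 1.46 (adjusted p = 0.0375). EIF2AK2 was at 55.2 and 47.7 TPM and then 22 and 24.2, and fell by 1.12 (adjusted p = 0.0371). OAS3 was at 4.94 and 2.98 TPM and then 1.16 and 2.395 and did not pass (adjusted p = 0.24).

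BST2 was at 277 and 251 TPM and then 67.4 and 139.9, and fell by 1.43 (adjusted p = 0.023). SAMD9 was at 5.93 and 6.78 TPM and then 2.77 and 1.101, and fell by 1.39 (adjusted p = 0.0179). PARP14 was at 16.3 and 17.6 TPM and then 8.08 and 9.02, and fell by 0.91 (adjusted p = 0.0294). Each of these had both stimulated libraries well below the controls, with the first library lowest for BST2 and the second for SAMD9. SP110 was at 5.51 and 4.76 TPM and then 2.39 and 1.48, and fell by 1.08 (adjusted p = 0.0433). DHX58 was at 0.784 and 0.961 TPM and then 0 and 0.103, and fell by 0.83 (adjusted p = 0.0489), a difference that rested on 6 and 8 reads in the controls and 0 and 1 after stimulation. DHX58 was thus lower in both lymphoid lines, as 1 of the 5 members that fell in Jurkat and 1 of the 11 that fell in BJAB.

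**Figure D3:**
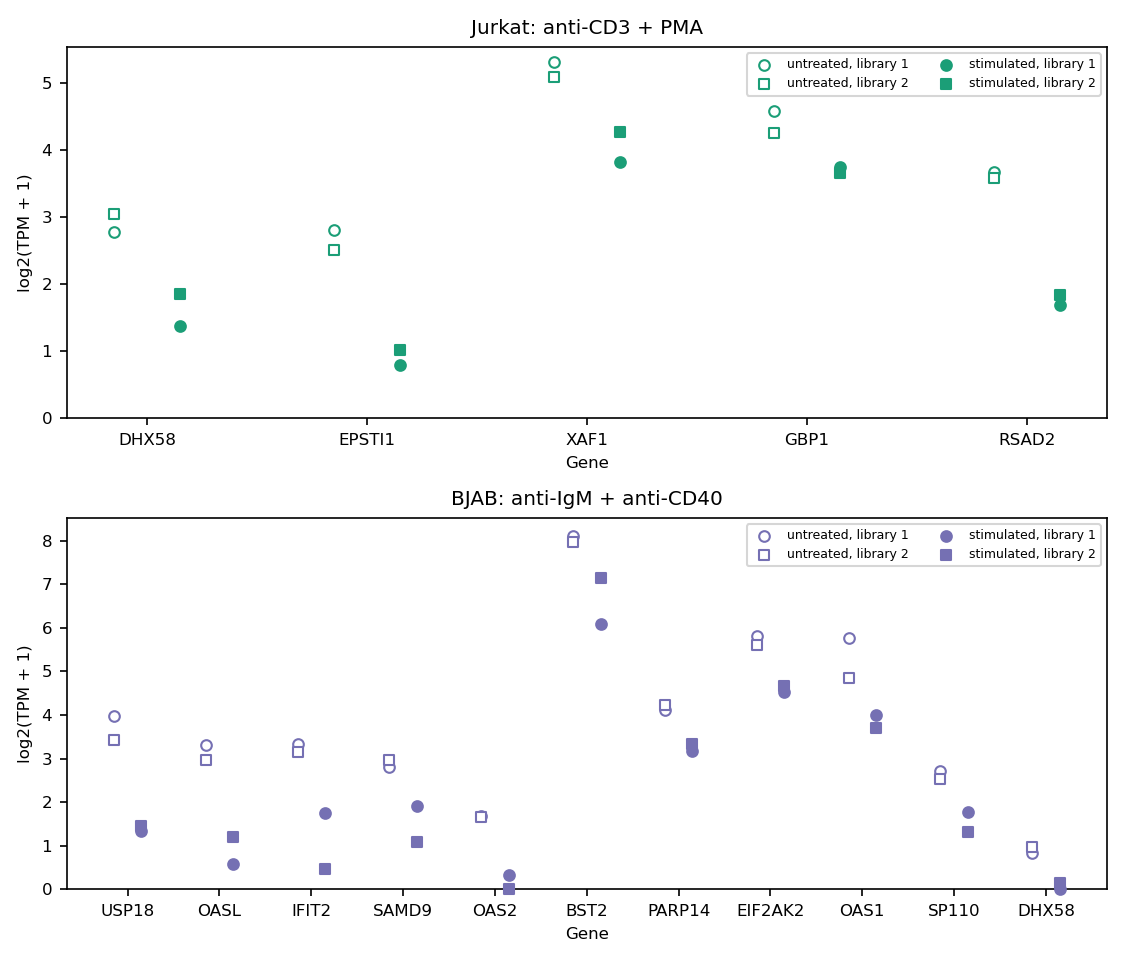
Level of the members that fell in Jurkat (top) and BJAB (bottom), as log2(TPM + 1), with 1 point per library, open for untreated and filled for stimulated, circles for the first library and squares for the second. In all 16 pairs of groups both stimulated libraries lie below both untreated ones.

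Other members in BJAB were split between the 2 stimulated libraries. LGALS3BP was at 352 and 327 TPM in the controls and 30.9 and 273 after stimulation (-1.86 (SE 0.69, adjusted p = 0.133)), with the low value in the library that stood apart. IFIT3 was at 23.1 and 18.04 TPM and then 28.9 and 2.18, with the first stimulated library above and the second below the controls. Positive differences were small, with IFI27 at 0.28. Among members with a mean of at least 5 TPM in the higher group the largest were those of the IFITM genes. IFITM3 was at 45.03 and 44.2 TPM and then 73.3 and 39.5 (0.27), IFITM1 at 9.06 and 8.33 and then 14.3 and 7.52 (0.24), and IFITM2 at 171 and 144 and then 234 and 142 (0.22). In all 3 the second stimulated library was below both controls, and without the first their differences were -0.17, -0.19 and -0.14. IFIH1 was at 15 and 12.5 TPM and then 15.6 and 15.9 (0.19) and was the 1 member with both stimulated libraries above both controls. ISG15, at 252 and 207 TPM and then 189 and 110.5 (-0.65 (SE 0.38, adjusted p = 0.324)), and PLSCR1, at 52.3 and 47.5 and then 37.5 and 26.7 (-0.64 (SE 0.23, adjusted p = 0.13)), were lower in both stimulated libraries without passing.

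Taken 1 library at a time, the members' median log2 difference from the BJAB controls was -0.50 in the first stimulated library and -0.74 in the second. Over all tested genes these medians were -0.21 and -0.04. Of the 46 tested members, 27 lay below both controls in the first library, where 51.0% of all genes did. In the second library 35 did, against 41.1% of all genes. Without the 2 libraries that stood apart, 15 members fell, 9 of them among the 11, where 9.22% of all genes passed. The count was 6 after median-ratio scaling, where 8.24% of all genes passed, and 0 with the BJAB libraries fitted alone, where 0.0833% did. It was 2 without the first BJAB control (2.83% of all genes), 4 without the second (2.22%) and 6 without the first stimulated BJAB library (3.1%). It was also 6 without any 1 of the untreated U937 and Jurkat libraries (4.67% to 4.7%) and 7 without either untreated THP-1 library (4.55% and 4.56%). USP18 and OASL passed in every one of these fits but the one of BJAB alone.

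**Figure D4:**
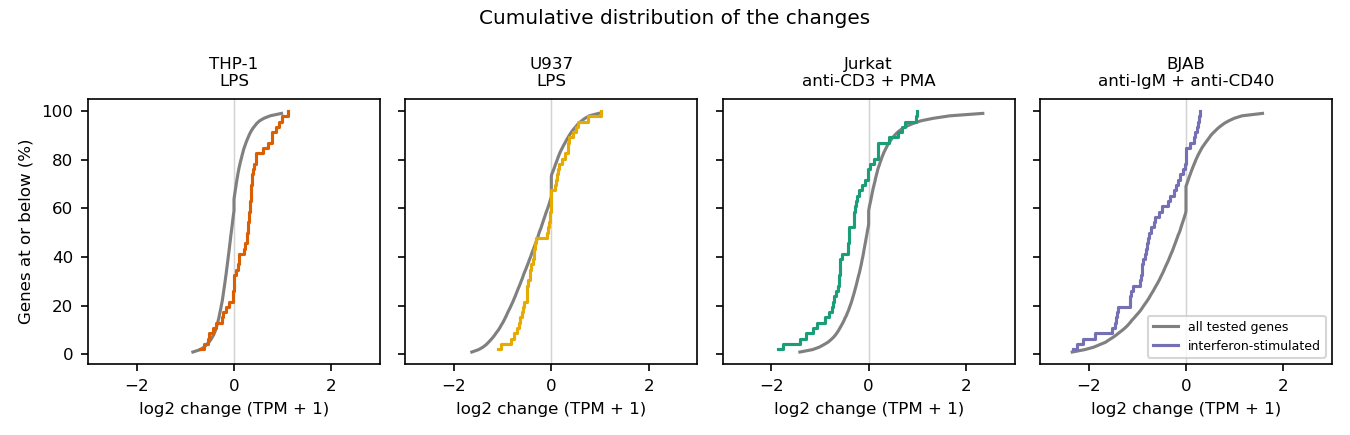
Cumulative share of genes at or below each change in log2(TPM + 1) on stimulation, for the 46 tested members (coloured steps) and all 14398 tested genes (grey, drawn at its percentiles from 1 to 99), by line. The members' curve lies left of the grey one over most of its range in Jurkat and BJAB, with medians of -0.40 and -0.74 against -0.03 and -0.14, and right of it, again over most of its range, in THP-1.

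The responses of Jurkat and BJAB were set against each other in a test of the difference, with line and stimulus confounded. The difference passed for 2 members, OASL and PLSCR1, both with the larger value in Jurkat. They were 4.35% of the members, where 5.24% of all genes passed, 3.76% with the larger value in Jurkat and 1.48% in BJAB. OASL was at 2.14 and 3.16 TPM in the Jurkat controls and 2.87 and 3.45 after stimulation (0.20), against its fall in BJAB, a difference of 2.44 (SE 0.45, adjusted p = 0.00784). PLSCR1 had opposite signs in the 2 lines, 0.74 in Jurkat and -0.64 in BJAB, neither of which passed alone, with a difference of 1.38 (SE 0.33, adjusted p = 0.0341). USP18, with 1.42 (SE 0.38, adjusted p = 0.0548), just missed the threshold, and 11 members (23.9%) had an unadjusted p under 0.05, 10 of them with the larger value in Jurkat, where 16.7% of all genes were under it (11.5% larger in Jurkat and 5.14% in BJAB). OASL passed under each alternative fit. PLSCR1 did not pass after median-ratio scaling, with weighted recovered reads, with the lines fitted alone, or without any 1 of the untreated THP-1, U937 or Jurkat libraries, the stimulated Jurkat libraries or either BJAB control, which left 1 or 2 members, where 3.37% to 5.79% of all genes passed. The median difference was 0.44 over the members and 0.14 over all genes. Without the 2 libraries that stood apart these medians were 0.35 and 0.03. Without the second stimulated BJAB library, which leaves the one that stood apart, they were 0.24 and 0.23. More members passed without the 2 libraries that stood apart than in the main fit. A larger share of all genes passed there too, and that fit holds only 1 stimulated BJAB library.

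The genes upstream of the set were read from a list of other pathway genes. Of 14 listed symbols of interferon genes, 11 are in the files and none reached the level for testing. IFNB1, the interferon that LPS is known to induce, was listed at 0 in all 16 libraries, as were IFNA1, IFNA2, IFNA8, IFNA13, IFNK, IFNE and IFNL2. IFNG, IFNL1 and IFNL3 had values of at most 1.04 TPM, all in Jurkat libraries. None of the 6 tested receptor genes passed in any of the 4 stimulations. IFNAR1 was between 22.2 and 51.8 TPM and IFNAR2 between 12.3 and 76.9 TPM in every library, so both chains of the type I receptor were measured in each line.

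Of the 10 kinases and transcription factors described here, 2 fell in BJAB, where 4.76% of all tested genes did, and none passed in the other lines. IRF9, the DNA-binding part of ISGF3, was at 77.01 and 73.2 TPM in untreated BJAB and 10.4 and 21.7 in stimulated BJAB, and fell by 2.24 (SE 0.42, adjusted p = 0.00957). In THP-1 it was at 43.04 and 31.6 TPM and then 84.4 and 69 (1.03 (SE 0.42, adjusted p = 1.0)), and in Jurkat at 8.79 and 7.86 and then 16.6 and 21.1 (1.08 (SE 0.42, adjusted p = 0.26)). Its groups did not overlap in any of these 3 lines, and the difference between the Jurkat and BJAB responses was 3.32 (SE 0.60, adjusted p = 0.00622). IRF2, a factor that binds the same element, was at 23.5 and 25.8 TPM in BJAB and then 3.48 and 6.72, and fell by 2.12 (adjusted p = 0.00343). IRF7, which amplifies interferon alpha production, was at 7.03 and 6.33 TPM in Jurkat and then 14.6 and 17.4 (1.14 (SE 0.57, adjusted p = 0.458)), and at 11.5 and 10.3 in BJAB and then 0.479 and 6.55 (-1.83 (SE 0.57, adjusted p = 0.0801)).

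Of 12 tested sensors and adaptors upstream, TLR7 rose in THP-1, from 0.2401 and 0.3099 to 1.21 and 1.33 TPM (adjusted p = 0.0291). That call held in 10 of 24 alternative fits, with an adjusted p of up to 0.545, and was lost without the 2 libraries that stood apart (adjusted p = 0.0562) or without either THP-1 control. TLR4, the LPS receptor, fell in BJAB, from 10.9 and 11.96 to 1.82 and 2.097 TPM (adjusted p = 0.00742). Of 4 negative regulators, SOCS1, an inhibitor of JAK kinases, rose in Jurkat from 0.916 and 1.43 to 11.3 and 12.8 TPM (adjusted p = 0.0208) and fell in BJAB from 10.96 and 5.17 to 0 and 1.99 (adjusted p = 0.0341). The difference between these 2 responses also passed (adjusted p = 0.00351). The SOCS1 call in BJAB held in 8 of 25 alternative fits, with an adjusted p of up to 0.448, and without the 2 libraries that stood apart the difference was -1.52 (adjusted p = 0.132). The Jurkat call held in 18 of 25 and the difference in 24.

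Among 33 tested other interferon-inducible genes, the chemokine CXCL10 was the 1 that passed after LPS. It was listed at 0 in both THP-1 controls and reached 30.3 and 24.3 TPM with LPS (limma adjusted p = 4.5e-05), and in U937 it rose from 0 and 1.48 to 46.1 and 44.2 TPM (adjusted p = 5.95e-05), so that the first stimulated U937 library did not stand apart for it. In Jurkat 4 rose: TNFSF10, the death ligand TRAIL, from 7.54 and 5.67 to 63.5 and 63.2 TPM (adjusted p = 4.56e-05), ZC3HAV1, the antiviral protein ZAP, from 47.3 and 45.8 to 131 and 116 (adjusted p = 0.0117), the guanylate-binding protein GBP3, from 9.83 and 9.37 to 26.4 and 35.5 (adjusted p = 0.0218), and the cytidine deaminase APOBEC3G, from 7.89 and 8.899 to 21.9 and 27.3 (adjusted p = 0.0141). GBP3 rose in the cells in which GBP1 fell. In BJAB 5 fell: TRIM25, a ligase that activates RIG-I, from 38.5 and 47.1 to 8.297 and 8.303 TPM, PARP10 from 15.1 and 16.3 to 0 and 1.03, PARP12 from 11.8 and 7.698 to 0.0675 and 1.85, the nucleic acid sensor ZBP1 from 1.34 and 2.36 to 0.167 and 0.528, and CIITA, the activator of MHC class II genes, from 2.54 and 1.804 to 0.163 and 0.458. Their adjusted p-values ran from 0.0024 for PARP10 to 0.0161 for CIITA. Without the 2 libraries that stood apart these 5 genes, IRF9 (-1.75), IRF2 (-1.73) and TLR4 still passed in BJAB and CXCL10 in U937, with adjusted p from 0.000401 for TLR4 to 0.0361 for ZBP1. Over the 25 alternative fits the calls in Jurkat held in 25 for TNFSF10, 20 for ZC3HAV1, 18 for APOBEC3G and 17 for GBP3. In the main fit 3.02% of all tested genes rose in Jurkat and 4.76% fell in BJAB.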

How the data were processed

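RNA was measured in 16 SmartSeq2 libraries of 4 lines. Reads were aligned with TopHat2 to hg19, per the submitters' processing notes. For the counting program and the annotation, the sources used here give no name. The authors deposited 1 file per library of TPM values, from unique alignments per the file names, each summing to 1000000. The 47 members, their roles and the other lists were chosen with earlier results of these data known, and 1 listed pathway gene is not reported here.

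Whole reads were recovered from the steps between TPM values for 17860 of 19092 genes above 0 (93.5%, tolerance 0.01 reads). Recovered depth was 4125221 to 8431295 reads, and intervals or floors of 3 reads cover counting error only. Every recovered member count in the second stimulated THP-1 library was even, so its reads may be overstated by a common factor. The voom fit on recovered reads used these counts. The 14398 genes with at least 1 TPM in at least 2 libraries were transformed to log2(TPM + 1) and modelled across the 16 libraries in limma 3.58.1 (R 4.3.3), with a mean for each of the 8 groups and a trended prior. All lines thus share the spread, and changes of low genes are understated. All p-values are two-sided and adjusted by Benjamini and Hochberg over every tested gene, at a threshold of 0.05. Contrasts were the 4 stimulations, 2 differences between responses and the 6 pairs of untreated lines. Read recovery and fit were tested on simulated data.

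Values by library are printed, in the comparison they belong to, for members that passed in a stimulation or a difference, for the 4 largest changes each way per stimulation (mean of at least 5 TPM in the higher group), for the most abundant member of each role, and for members listed at 0 in all 4 libraries of a line. The alternatives were pseudocounts of 0.1 and 5, no filter, a minimum of 5 TPM, median-ratio scaling, the replicate number as a block, voom weights on the recovered reads, each line or pair of lines fitted alone, leaving out the 2 libraries that stood apart (the first stimulated one of U937 and of BJAB), and leaving out each library.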

Additional observations from a re-analysis of the deposited data

Results flagged for a closer look

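For 2 genes the response of Jurkat to anti-CD3 and PMA differed from that of BJAB to anti-IgM and anti-CD40 in the test of the difference itself. For OASL the difference was 2.44 on the log2(TPM + 1) scale (SE 0.45, limma adjusted p = 0.00784), with the larger value in Jurkat. OASL went from 2.14 and 3.16 TPM to 2.87 and 3.45 in Jurkat and from 8.85 and 6.78 to 0.492 and 1.29 in BJAB. For PLSCR1 the difference was 1.38 (SE 0.33, limma adjusted p = 0.0341). PLSCR1 went from 35.8 and 38.0 TPM to 61.0 and 63.7 in Jurkat and from 52.3 and 47.5 to 37.5 and 26.7 in BJAB. In BJAB both stimulated libraries lay below both controls for both genes. In Jurkat both lay above both controls for PLSCR1, while the groups overlapped for OASL.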

How the results depend on the processing

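Over 25 alternatives, no member that passed in a stimulation or difference changed sign, while passing was less stable. For Jurkat, DHX58 passed in 22, EPSTI1 in 20, XAF1 in 17, RSAD2 in 14 and GBP1 in 13. For BJAB, OASL and USP18 passed in 24, IFIT2 in 22, OAS2 and SAMD9 in 20, BST2 in 19 and PARP14 in 15. The least stable BJAB calls were EIF2AK2, which passed in 12, DHX58 in 9, OAS1 in 8 and SP110 in 6. The number of members passing in Jurkat, 5, became 0 with a pseudocount of 0.1, 9 with a pseudocount of 5, 13 without the 2 libraries that stood apart (the first stimulated one of U937 and of BJAB), 1 with the line fitted alone and 1 with voom on recovered reads. The BJAB count, 11, became 6 after median-of-ratios scaling and 0 with the line fitted alone. The count for the difference between Jurkat and BJAB, 2, became 1 after that scaling (5.79% of all genes) and with voom (3.71%). It was larger without the 2 libraries that stood apart, as was the share of all genes that passed. Counts without any 1 library ran from 0 to 14 for U937, 1 to 6 for Jurkat, 2 to 13 for BJAB, 1 to 5 for the Jurkat and BJAB difference, 0 to 8 for the LPS difference and stayed at 0 for THP-1. For the untreated pairs they ran from 13 to 21 for THP-1 and U937, 18 to 31 for THP-1 and Jurkat, 24 to 32 for THP-1 and BJAB, 22 to 35 for U937 and Jurkat, 17 to 25 for U937 and BJAB and 20 to 30 for Jurkat and BJAB. In every one of these comparisons the share of all genes that passed also moved from fit to fit. The ranges therefore do not separate a shift in the members from a shift in how many genes passed at large. Where 1 library of a group was left, that library was assumed to vary like the others.

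Differences that had not passed changed sign without the first stimulated library of their group, alone or with that of the other line: in U937, ISG15 to -0.11 and STAT2 to 0.05, and in BJAB, IFITM3 to -0.17, IFITM1 to -0.19 and IFITM2 to -0.14. Without the second stimulated library they were 1.22, -1.57, 0.70, 0.66 and 0.57. The cause was not tested.

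With the replicate block 2 members passed in Jurkat (DHX58 and EPSTI1), where 3.31% of all genes did. In BJAB 3 passed (USP18, OASL and IFIT2), where 3.76% of all genes did, and in the difference 1 (OASL), where 3.5% did. Libraries with the same number did not deviate together, with correlations of 0.012 in THP-1, -0.042 in U937, 0.017 in Jurkat and 0.142 in BJAB, so the numbers were not taken as pairs. Low depth limits the members with few reads: DHX58 in BJAB rested on 6 and 8 reads against 0 and 1.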

Other observations

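IFI44L, the 1 member below the level for testing, was above 0 in 8 of the 16 libraries and highest in stimulated THP-1, at 0.621 and 0.205 TPM, where both controls were at 0. MX1 was above 0 in 11 libraries, with its highest value, 2.38 TPM, in the second untreated U937 library and 0.730 in the first. SAMD9L and GBP2 were also low in every library, at no more than 5.34 and 5.11 TPM, and both had their highest values in stimulated THP-1.

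Summed over the 47 genes, BJAB went from 1640.0 and 1417 TPM to 978 and 953, and Jurkat from 1677 and 1789 to 1413 and 1510.0. THP-1 went from 1646 and 1611 to 1780.0 and 1742, and U937 from 2224 and 2314 to 2871 and 2239, where IFITM2 alone held 1166 and 1188 TPM before and 1480 and 1157 after.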
